A study of Homo sapiens with 12 samples.

Results

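Axon guidance genes encode the cues that steer growing axons and the receptors that read them. The 59 genes described here were chosen by name from the 59653 rows of the count table and fall into 5 families: 16 semaphorins, 11 plexins and neuropilins, 18 ephrins and Eph receptors, 6 slits and Robo receptors, and 8 netrins with their DCC and UNC5 receptors. All 59 were found and all passed the filter on low counts. RNA-seq had been made from total RNA of neurons derived from human induced pluripotent stem cells, with IMR-90, an established fetal lung fibroblast line, given as the cell line. The 6 siNC libraries came from cells treated with a negative control siRNA and the 6 siZCC libraries from cells treated with an siRNA against ZCCHC17, which encodes a zinc knuckle protein; both groups share the line and the cell type label. NPC also appears in the sample titles and is explained nowhere in the sources used here. No label says whether replicates came from separate cultures, so p-values measure only the spread between these libraries, which may be technical, and 1 siRNA label and 1 line limit what the groups stand for.

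Semaphorins bind plexins, directly or, for most secreted class 3 members, through a neuropilin co-receptor, and mostly make growth cones turn away or collapse. Ephrins are held in the membrane and signal to Eph receptors on touching cells, with signals running in both directions. Slits are secreted and repel axons through Robo receptors, which among other things keeps axons from recrossing the midline. Netrins attract axons through DCC and repel them through UNC5 receptors. In developing neural tissue the same genes also act in neuron migration and in progenitor cells.

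Library totals ran from 76115083 to 120023356 counts, and 57 of the 59 genes had more than 100 counts in every library. Values are CPM, counts scaled to a common library size and corrected for library composition. ZCCHC17 itself stood at 54.0 to 61.0 CPM in siNC and at 9.37 to 10.6 CPM in siZCC, without overlap, a log2 fold change of -2.51 with SE 0.0402. Tests here and in what follows are edgeR's quasi-likelihood test, adjusted by Benjamini-Hochberg over all genes tested, and for ZCCHC17 this gave an adjusted p of 3.52e-17. Expression of IL1B set 6 libraries apart from the other 6: siNC replicates 2, 3 and 6 and siZCC replicates 1, 4 and 5 held 5.23 to 16.0 CPM, and the others 0.0223 to 0.0999 CPM. Because each side has 3 libraries of each group, changes are also given within each side. Transcripts of several cell types were present. The defining neuron genes MAP2 (1027 CPM in siNC) and DCX (648 CPM) stood beside the progenitor genes VIM (3548 CPM) and SOX2 (621 CPM), the astrocyte gene GFAP (615 CPM) and the dividing cell gene MKI67 (205 CPM). Other genes of these lists stood far lower in siNC, among them the neuron genes TUBB3 (14.2 CPM) and RBFOX3 (1.27 CPM) and the astrocyte gene ALDH1L1 (2.21 CPM). The microglial genes AIF1, CX3CR1 and TREM2 averaged below 0.1 CPM in siNC. The whole list of 6 microglial genes summed to a mean of 1.91 CPM in siNC, and 3 of the 6 passed the filter on low counts.

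The control cultures expressed ligands and receptors of every family. To compare levels between genes, CPM was divided by exon length in kilobases (RPKM). NTN1, the founding netrin, was the most abundant of the 59 in siNC at 114 ± 4.94 RPKM (SD, n = 6), followed by SLIT1 at 82.8 ± 8.08 RPKM (SD, n = 6), the receptor PLXNB2 at 70.3 ± 1.77 RPKM (SD, n = 6) and the ligand EFNB3 at 56.6 ± 1.41 RPKM (SD, n = 6). NTN1 and SLIT1 stood further apart than their SDs, as did SLIT1 and PLXNB2. SEMA6A led the semaphorins (29.8 ± 0.982 RPKM, SD, n = 6), EPHB1 the Eph receptors (30.8 ± 1.31 RPKM, SD, n = 6), ROBO1 the Robo receptors (27.2 ± 1.86 RPKM, SD, n = 6) and NEO1, a relative of DCC, the netrin receptors (30.6 ± 1.41 RPKM, SD, n = 6). ROBO1 lay below EPHB1 and NEO1 by slightly more than the sum of their SDs, whereas EPHB1, NEO1 and SEMA6A lay within it and their order is not resolved. The SDs do not cover the choice of length. Divided by the longest transcript, ROBO1 (39.4 RPKM) stood above NEO1 (33.8 RPKM), and SLIT2 (57.7 RPKM) above EFNB3 (56.6 RPKM). These orders therefore depend on the length used. In 25 of the 59 genes the siNC mean was at least 10 RPKM, and in 6 it was under 1 RPKM. Those 6 were SEMA3D, SEMA3E, EPHB6, UNC5A, UNC5B and UNC5D. The remaining UNC5 receptor, UNC5C, stood at 1.64 RPKM, so the UNC5 receptors were weakly expressed beside NTN1.

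**Figure D1:**
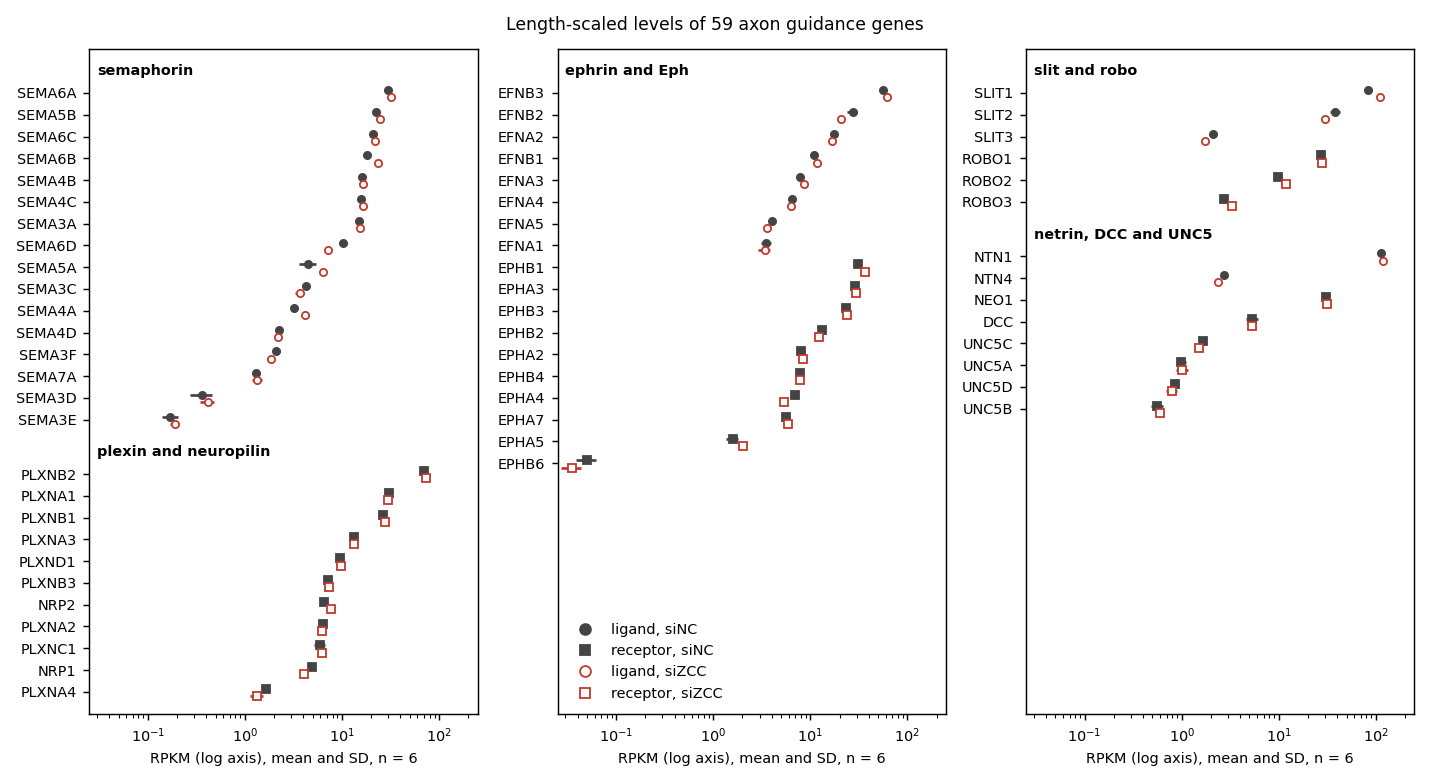
Mean RPKM (log axis) with SD over 6 libraries for each of the 59 genes, ordered within family and role by the siNC level; filled symbols are siNC and open red symbols siZCC, circles are ligands and squares receptors. NTN1 (114 RPKM in siNC) and SLIT1 (82.8 RPKM) lie at the upper end and EPHB6 at the lower end, and differences between the groups are small beside the range between genes.

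With the ZCCHC17 siRNA, genes of all 5 families differed, in both directions in 4 of them and only lower, with NTN4, in the netrin family. At an adjusted p under 0.05, 25 of the 59 genes differed, 14 higher and 11 lower in siZCC, which is 42.4% against a background of 22.2% of the 24671 genes tested (11.4% higher, 10.8% lower). Well-expressed genes are called more often, and among the 12625 genes of at least 5 CPM the background was 32%, against 25 of 54 guidance genes, or 46.3%. The 6 siZCC libraries did not overlap the 6 siNC libraries in 15 of the 59, or 25.4%, against 9.74% of all genes tested and 15.3% of those of at least 5 CPM. All 15 were also called, which was the case for 9.53% of all genes tested. The 59 were chosen with earlier results of these data known. Their shares beside the background therefore cannot be read as an excess among guidance genes, and no such excess was tested. Changes were modest: the 25 had a median size of 0.29 on the log2 scale, 14 changed by at least 1.2-fold and 0 by at least 1.5-fold. The median over all 59 was 0.03, with 35 positive and 24 negative values, beside -0.0016 for all genes tested. Of the 29 ligands 17 were called, 9 higher and 8 lower, and of the 30 receptors 8, 5 higher and 3 lower; the difference between these shares was not tested. The call of 18 of the 25 held in each of the 9 alternative fits to all libraries and each of the 12 fits that left out 1 library. The other 7, SEMA3C, SEMA3F, SEMA4C, SEMA6A, EFNB1, EFNB3 and NTN4, lost it in at least 1.

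**Figure D2:**
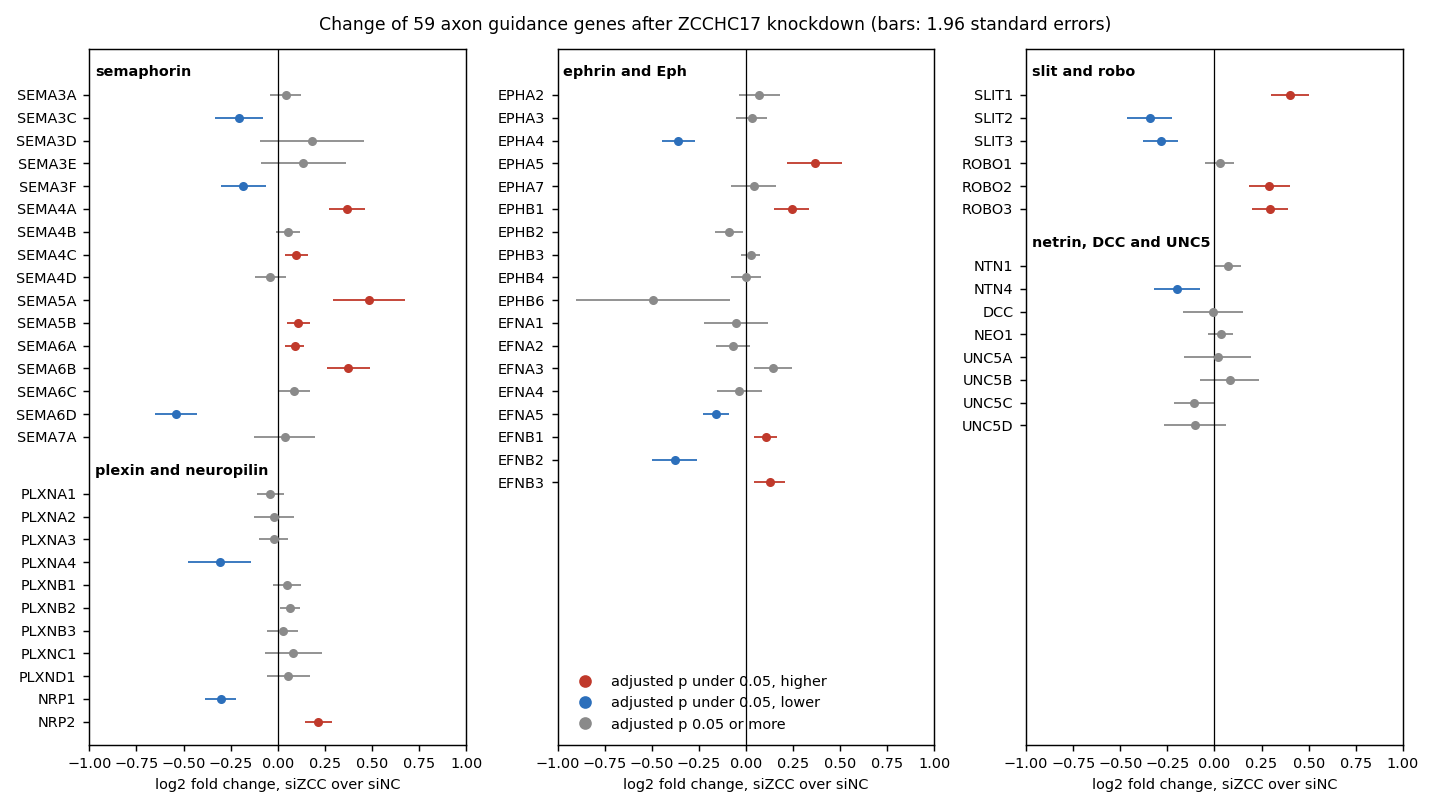
Log2 fold change of siZCC over siNC for the 59 genes by family, with bars for the 95% interval from the edgeR fit; red and blue mark the 14 higher and 11 lower genes with an adjusted p under 0.05, and grey the other 34. Red and blue genes occur side by side in 4 of the families, while the netrin family has a single call, NTN4.

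Markers of several cell types were also called between the same groups, beside a background of 22.2% of all genes tested and 32% of those of at least 5 CPM. The share called was 100% for proliferation, 66.7% for mesenchymal and meningeal, and 50% each for neuron, astrocyte and progenitor markers. It was 66.7% for pluripotency, 40% for endothelial, 16.7% for oligodendrocyte lineage and 0% for microglial markers. All 8 proliferation markers were lower, with a summed level of 669 to 783 CPM in siNC and 517 to 607 CPM in siZCC. Of 12 neuron markers 5 were lower and 1 higher, with sums of 3403 to 3891 and 3100 to 3573 CPM. Of 9 mesenchymal and meningeal markers 5 were lower and 1 higher (480 to 825 and 363 to 571 CPM), of 8 astrocyte markers 3 were higher and 1 lower (1637 to 1859 and 1703 to 2025 CPM), and of 8 progenitor markers 3 were higher and 1 lower (5748 to 6129 and 5800 to 6324 CPM). Among 5 endothelial markers tested of 6, TEK and CLDN5 were lower, with sums of 12.4 to 17.6 and 8.62 to 10.7 CPM, while VWF and CDH5 averaged 0.0894 and 0.0611 CPM in siNC. The pluripotency list had 2 higher of 3 tested, the oligodendrocyte lineage list 1 lower of 6 and the microglial list 0 of 3. The part of these shifts in the guidance genes was not tested, and in bulk RNA fewer cells of a type and less RNA per cell cannot be told apart.

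The slit and Robo genes had the largest share of calls, 5 of 6 or 83.3%. The background was 22.2% of all genes tested and 32% of those of at least 5 CPM. SLIT1 was higher, SLIT2 and SLIT3 were lower, and the receptors ROBO2 and ROBO3 were higher. SLIT1, the most abundant slit here and in the brain known as largely neuronal, ran from 685 to 849 CPM in siNC (median 728) and from 957 to 1061 CPM in siZCC (median 987). Every siZCC library exceeded every siNC library, and the gain was 32.3% (log2 fold change 0.40, SE 0.0515; edgeR's quasi-likelihood test, adjusted p 4.17e-05). SLIT2, a midline repellent, ran from 328 to 427 CPM (median 358) in siNC and from 269 to 309.9 CPM (median 290.5) in siZCC. Its groups also did not overlap, and it fell by 21.2% (log2 fold change -0.34, SE 0.0614; edgeR's quasi-likelihood test, adjusted p 7.73e-04). SLIT3 was far less abundant, at 28.2 to 31.6 CPM (median 30.4) in siNC and 21.7 to 27.5 CPM (median 25.4) in siZCC. It fell by 18.0% without overlap of the groups (log2 fold change -0.29, SE 0.0476; edgeR's quasi-likelihood test, adjusted p 4.50e-04). The balance of the ligands shifted accordingly. Per exon length, there were 1.73 to 2.76 SLIT1 transcripts for each SLIT2 transcript in siNC and 3.31 to 4.08 in siZCC. This ratio does not depend on how libraries are scaled, but its size depends on the length used, as do the length-scaled ratios below. Siding with the longest transcript, the siNC means were 95.2 RPKM for SLIT1 and 57.7 RPKM for SLIT2, against 82.8 and 38.0 RPKM by exon length. The lengths are the same in both groups. Summed over the 3 slits, the level was 123 ± 6.88 RPKM in siNC and 141 ± 4.47 RPKM in siZCC (SD, n = 6 each), 111 to 129.8 and 137 to 147 by library.

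Among the receptors of slits, ROBO2 ran from 144 to 192 CPM in siNC (median 160) and from 186 to 209.5 CPM in siZCC (median 202). The groups overlapped only through siNC replicate 5, the highest control, and siZCC replicate 6, the lowest treated library. ROBO2 rose by 22.4% (log2 fold change 0.29, SE 0.0556; edgeR's quasi-likelihood test, adjusted p 0.00128). ROBO3, a divergent Robo known for its part in midline crossing, ran from 16.5 to 20.8 CPM in siNC (median 19.4) and from 22.6 to 24.4 CPM in siZCC (median 23.3), without overlap. It rose by 22.7% (log2 fold change 0.30, SE 0.0493; edgeR's quasi-likelihood test, adjusted p 4.50e-04). ROBO1, the most abundant Robo, showed no such difference, at 296 ± 20.2 CPM for siNC against 302 ± 6.84 CPM for siZCC (SD, n = 6 each). Its fold was 1.02 with a 95% interval of 0.967 to 1.08 (log2 fold change 0.03, SE 0.0392; edgeR's quasi-likelihood test, adjusted p 0.665), and without siNC replicate 3, its lowest library, the value turned to -0.0082.

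**Figure D3:**
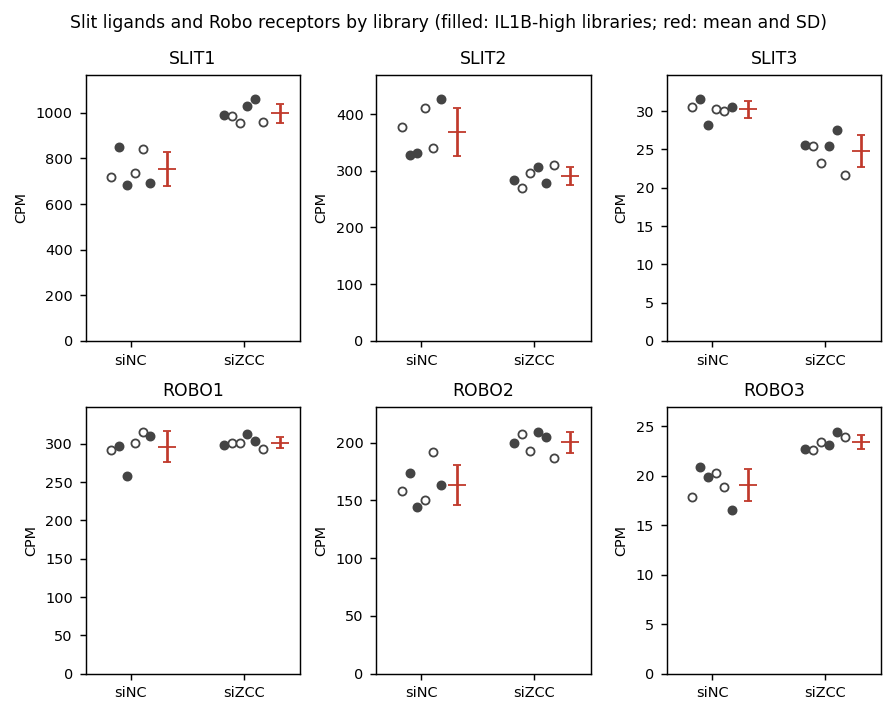
CPM of the 3 slits and 3 Robo receptors in each library; each circle is 1 library, filled for the IL1B-high libraries and open for the others, and the red mark is the mean with SD (n = 6). The siZCC libraries lie above all controls for SLIT1 and ROBO3 and below them for SLIT2 and SLIT3, ROBO2 overlaps slightly, and ROBO1 lies at the same level in both groups.

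The slit genes lie apart from each other: SLIT1 on chromosome 10 (96998038 to 97185920, minus strand), SLIT2 on chromosome 4 (20253260 to 20620561, plus strand) and SLIT3 on chromosome 5 (168661733 to 169301129, minus strand), in GENCODE v29 of GRCh38. The 250 bases before each RefSeq start (GRCh38.p14) are shown, 5′ to 3′ on the gene's strand. Capitals mark each GC box, searched as GGGCGG on both strands, the core of the site bound by SP1-type factors.
SLIT1, chr10:97185960-97186209: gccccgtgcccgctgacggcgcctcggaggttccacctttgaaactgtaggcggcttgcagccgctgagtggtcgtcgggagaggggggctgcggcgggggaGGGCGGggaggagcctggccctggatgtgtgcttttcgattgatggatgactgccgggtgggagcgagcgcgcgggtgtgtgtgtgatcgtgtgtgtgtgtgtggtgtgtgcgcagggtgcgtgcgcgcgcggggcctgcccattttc
SLIT2, chr4:20251655-20251904: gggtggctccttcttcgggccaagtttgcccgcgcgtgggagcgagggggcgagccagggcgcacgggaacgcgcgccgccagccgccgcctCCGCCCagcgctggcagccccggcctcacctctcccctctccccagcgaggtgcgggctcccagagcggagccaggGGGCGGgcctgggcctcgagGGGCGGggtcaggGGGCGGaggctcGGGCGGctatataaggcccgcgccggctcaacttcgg
SLIT3, chr5:169301140-169301389: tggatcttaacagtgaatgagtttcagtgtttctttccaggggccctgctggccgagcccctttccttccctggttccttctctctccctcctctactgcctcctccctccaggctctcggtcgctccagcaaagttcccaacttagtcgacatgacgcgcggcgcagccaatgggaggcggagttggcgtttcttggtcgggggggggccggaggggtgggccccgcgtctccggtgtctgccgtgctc
The window of SLIT2 holds 5 GC boxes, that of SLIT1 holds 1 and that of SLIT3 holds 0, while 42.6% of all 35116 RefSeq windows of this length hold at least 1. G and C make up 77.2% of the SLIT2 window, 68.4% of that of SLIT1 and 62.8% of that of SLIT3, against a median of 58.0% over all windows. How many windows hold as many as 5 was not counted. These counts describe the letters only, and RefSeq's start may not be the one used in these cells. The RefSeq and GENCODE starts differ most for SLIT2, whose window ends at 20251904 while its GENCODE gene starts at 20253260. A link between these windows and the changes of the slits was not tested.

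Semaphorins had 9 calls among 16 genes, 6 higher and 3 lower, or 56.2%, against 22.2% of all genes tested and 32% of those of at least 5 CPM. The calls were lower in class 3 (2 of 5 genes), higher in class 4 (2 of 4) and class 5 (2 of 2), and mixed in class 6 (2 higher and 1 lower of 4). The transmembrane SEMA6D had the largest change of the 59. It ran from 78.9 to 102 CPM in siNC (median 87.5) and from 57.0 to 66.0 CPM in siZCC (median 59.6), so that every treated library was below every control. It fell by 31.2% (log2 fold change -0.54, SE 0.0576; edgeR's quasi-likelihood test, adjusted p 7.77e-06). Its class 6 relative SEMA6B moved the other way, from 72.6 to 89.6 CPM in siNC (median 78.9) to 91.0 to 111 CPM in siZCC (median 105). SEMA6B rose by 29.7% without overlap (log2 fold change 0.38, SE 0.0577; edgeR's quasi-likelihood test, adjusted p 2.29e-04). The length-scaled ratio of SEMA6B to SEMA6D went from 1.39 to 2.14 in siNC to 2.68 to 3.77 in siZCC. SEMA6A, the most abundant semaphorin, rose by only 6.45% (327 ± 10.8 to 348 ± 4.64 CPM, SD, n = 6 each; adjusted p 0.0209 in edgeR's quasi-likelihood test), and although the groups did not overlap, its call was lost without siZCC replicate 3 (adjusted p 0.0515).

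SEMA5A, a transmembrane semaphorin with thrombospondin repeats, was the largest rise of the 59. It spread widely among controls, from 42.0 to 72.7 CPM (median 53.0), and ran from 69.0 to 84.1 CPM (median 76.3) in siZCC. The overlap came from siNC replicate 5 alone, at 72.7 CPM, while the other controls ended at 60.1 CPM. SEMA5A rose by 39.9% (log2 fold change 0.48, SE 0.0962; edgeR's quasi-likelihood test, adjusted p 0.00174). Its relative SEMA5B rose by 7.93%, from 193 ± 6.08 to 208 ± 7.62 CPM (SD, n = 6 each; adjusted p 0.0148 in edgeR's quasi-likelihood test).

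SEMA4A, a class 4 semaphorin known for its roles in immune cells and the retina, ran from 19.3 to 24.0 CPM in siNC (median 22.6) and from 27.4 to 30.1 CPM in siZCC (median 28.6). It rose by 29.2% without overlap (log2 fold change 0.37, SE 0.0491; edgeR's quasi-likelihood test, adjusted p 5.99e-05). SEMA4C rose by 7.02% (95.6 ± 3.46 to 102 ± 3.40 CPM, SD, n = 6 each; adjusted p 0.0311 in edgeR's quasi-likelihood test). The calls among secreted class 3 semaphorins were both lower. SEMA3C, a cue that can attract cortical axons, fell by 13.4% (26.7 ± 2.26 to 23.1 ± 2.40 CPM, SD, n = 6 each; adjusted p 0.0302 in edgeR's quasi-likelihood test), and SEMA3F, which acts through NRP2, by 11.8% (10.2 ± 0.863 to 8.99 ± 0.633 CPM, SD, n = 6 each; adjusted p 0.0422 in the same test). All 3 of these overlapped between the groups and were close to the threshold, so that leaving out any 1 of several libraries of either group ended the call. SEMA4C lost its call when siNC 1, 3 or 6 or siZCC 1, 3, 4 or 5 was left out (adjusted p 0.0518 to 0.0734), SEMA3C for siNC 1, 5 or 6 or siZCC 4 or 6 (0.0513 to 0.0812), and SEMA3F for siNC 1, 2, 3 or 4 or siZCC 2, 4, 5 or 6 (0.0526 to 0.107). The 7 semaphorins not called (SEMA3A, SEMA3D, SEMA3E, SEMA4B, SEMA4D, SEMA6C and SEMA7A) had log2 fold changes from -0.04 to 0.18.

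The receptors of the semaphorins had 3 calls among 11 genes, 1 higher and 2 lower, a share of 27.3% that is close to the background of 22.2% of all genes tested and 32% of those of at least 5 CPM. The neuropilins moved apart. NRP1, the co-receptor through which SEMA3A and also VEGF signal, ran from 52.9 to 63.4 CPM in siNC (median 56.8) and from 44.7 to 47.9 CPM in siZCC (median 46.7). It fell by 19.0% without overlap (log2 fold change -0.30, SE 0.0411; edgeR's quasi-likelihood test, adjusted p 7.33e-05). NRP2, the co-receptor of SEMA3F, ran from 82.1 to 96.8 CPM in siNC (median 93.2) and from 100.1 to 109.5 CPM in siZCC (median 109). It rose by 16.1%, again without overlap (log2 fold change 0.22, SE 0.0370; edgeR's quasi-likelihood test, adjusted p 5.76e-04). The length-scaled ratio of NRP2 to NRP1 was 1.23 to 1.498 in siNC and 1.86 to 1.95 in siZCC.

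Of the plexins, which carry the signal into the cell, only PLXNA4 was called. It fell by 19.2%, from 23.5 to 30.2 CPM in siNC (median 27.6) to 18.1 to 27.1 CPM in siZCC (median 22.6), and the groups overlapped (log2 fold change -0.31, SE 0.0853; edgeR's quasi-likelihood test, adjusted p 0.0157). Its fall was -0.16 within the IL1B-high libraries and -0.47 within the IL1B-low libraries, and the difference of these values had an adjusted p of 0.935 in edgeR's quasi-likelihood test of the interaction. PLXNB2, the most abundant plexin, stood at 510.4 ± 12.9 CPM for siNC against 534 ± 14.8 CPM for siZCC (SD, n = 6 each; fold 1.05, 95% interval 1.01 to 1.09; adjusted p 0.0865 in edgeR's quasi-likelihood test). The other 7 plexins not called, PLXNA1, PLXNA2, PLXNA3, PLXNB1, PLXNB3, PLXNC1 and PLXND1, had log2 fold changes from -0.04 to 0.08, and a p that misses the threshold does not show that they were equal.

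Ephrins and Eph receptors had 7 calls among 18 genes, 4 higher and 3 lower, a share of 38.9% that is near the 32% of all genes of at least 5 CPM. Among the receptors, EPHA4, which binds ephrins of both the A and the B class, ran from 45.4 to 56.6 CPM in siNC (median 52.8) and from 36.9 to 41.9 CPM in siZCC (median 41.0). It fell by 22.1% without overlap (log2 fold change -0.36, SE 0.0452; edgeR's quasi-likelihood test, adjusted p 3.60e-05). EPHA5, a receptor for A-class ephrins, ran from 13.1 to 19.0 CPM in siNC (median 15.5) and from 19.1 to 21.5 CPM in siZCC (median 19.99). The groups touched without overlapping, and EPHA5 rose by 28.7% (log2 fold change 0.36, SE 0.0740; edgeR's quasi-likelihood test, adjusted p 0.0021). EPHB1, the most abundant Eph receptor, rose by 18.2%, from 203 to 229 CPM in siNC (median 213) to 224 to 289 CPM in siZCC (median 253). Only siZCC replicate 2, at 224 CPM, lay within the control range (log2 fold change 0.24, SE 0.0475; edgeR's quasi-likelihood test, adjusted p 0.00164). The other 7 Eph receptors, EPHA2, EPHA3, EPHA7, EPHB2, EPHB3, EPHB4 and EPHB6, were not called; EPHB6 was barely expressed, with as few as 9 counts in a library, and its log2 fold change of -0.49 had an SE of 0.209.

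Among the ligands, EFNB2, an ephrin also needed for blood vessel growth, ran from 119 to 156 CPM in siNC (median 137) and from 97.8 to 112 CPM in siZCC (median 106). It fell by 23.0% without overlap (log2 fold change -0.38, SE 0.0612; edgeR's quasi-likelihood test, adjusted p 3.53e-04). An antisense transcript overlaps 26.2% of its exonic bases in GENCODE v29, and whether counting used the strand is not given in the sources used here, so its reads and those of its partner may not be told apart. EFNA5, an A-class ligand known from retinal mapping, fell by 10.5%, from 21.8 to 24.1 CPM in siNC (median 22.9) to 19.6 to 21.3 CPM in siZCC (median 20.6), without overlap (log2 fold change -0.16, SE 0.0353; edgeR's quasi-likelihood test, adjusted p 0.00364). The other B-class ligands were higher by small amounts. EFNB1 rose by 7.51% without overlap of the groups (36.3 ± 0.884 to 39.1 ± 1.59 CPM, SD, n = 6 each; adjusted p 0.0239 in edgeR's quasi-likelihood test), but the call was lost when siNC 1 or 6 or siZCC 1 or 5 was left out (adjusted p 0.0521 to 0.0641). EFNB3, the most abundant ephrin, rose by 9.05% (182 ± 4.55 to 199 ± 15.4 CPM, SD, n = 6 each; adjusted p 0.0454 in edgeR's quasi-likelihood test), a call that held without siZCC replicate 2, its lowest treated library, and was lost without any other single library (adjusted p 0.0513 to 0.102). EFNA1, EFNA2, EFNA3 and EFNA4 were not called. EFNA3 was close to the threshold (log2 fold change 0.14, SE 0.0512; edgeR's quasi-likelihood test, adjusted p 0.0522). It was called higher in 3 of the 9 alternative fits to all libraries and in 4 of the 12 that left out 1 library. EFNA3 and EFNA4 share 44.7% and 15.0% of their exonic bases with 1 readthrough gene on the same strand.

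**Figure D4:**
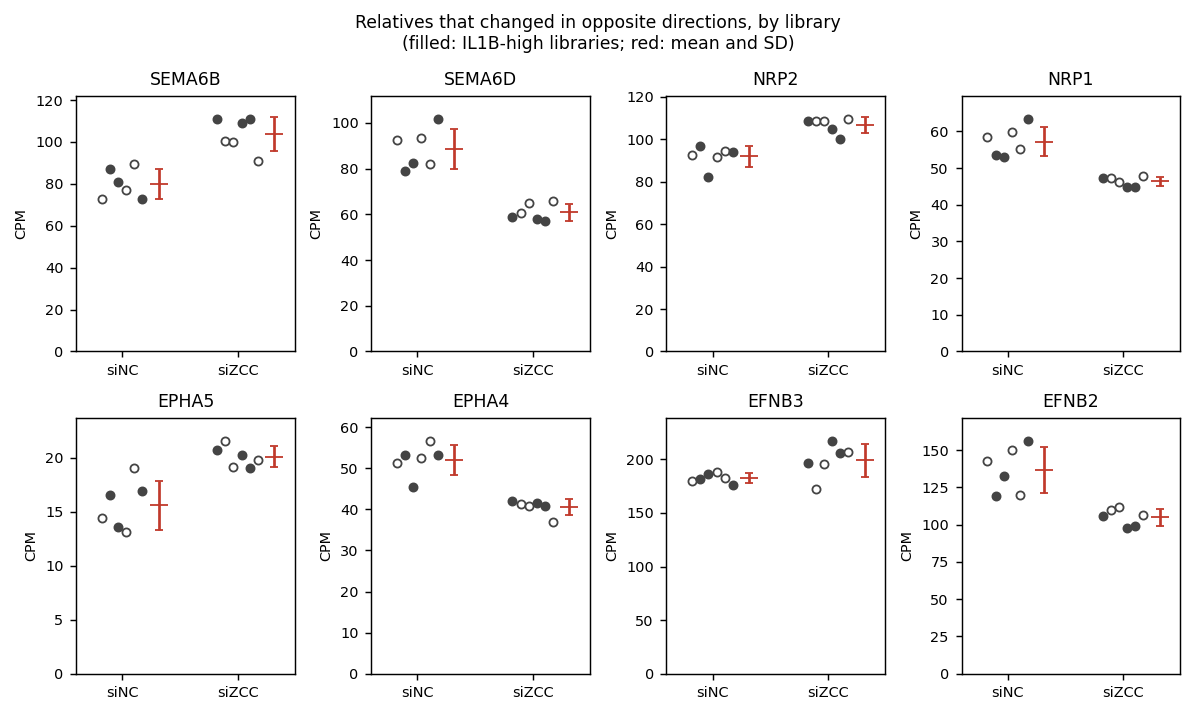
CPM by library of 4 pairs of relatives with opposite signs of change; each circle is 1 library, filled for the IL1B-high libraries, and the red mark is the mean with SD (n = 6). SEMA6B, NRP2 and EPHA5 lie above all controls in siZCC and SEMA6D, NRP1, EPHA4 and EFNB2 below them, whereas EFNB3 overlaps, with 1 siZCC library at 172 CPM.

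The netrin family had 1 call among 8 genes, a share of 12.5% that is below the background. NTN4, a laminin-related netrin of basement membranes, fell by 12.8% (11.4 ± 0.871 to 9.97 ± 0.864 CPM, SD, n = 6 each; adjusted p 0.0313 in edgeR's quasi-likelihood test). Its groups overlapped, and the call was lost when siNC 5 or 6 or siZCC 1, 3 or 6 was left out (adjusted p 0.0516 to 0.0708). NTN1 stood at 726 ± 31.5 CPM for siNC against 763 ± 34.5 CPM for siZCC (SD, n = 6 each; fold 1.05, 95% interval 1.002 to 1.102; adjusted p 0.157 in edgeR's quasi-likelihood test). NEO1, the main netrin receptor here by level, had a fold of 1.02 (95% interval 0.978 to 1.07; adjusted p 0.517 in the same test), and DCC, UNC5A, UNC5B, UNC5C and UNC5D had log2 fold changes from -0.11 to 0.08.

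Within the IL1B-high libraries 16 of the 25 called genes passed an adjusted p of 0.05 and within the IL1B-low libraries 12, each from 3 libraries against 3. All 25 had the same sign on both sides. Both counts and the shared sign follow in part from the 25 being chosen on all 12 libraries. The same shares were not counted among the other genes called over all 12 libraries, so they cannot be read as particular to guidance genes. Counts over all genes within each side are given below with the processing. SLIT1 was higher by 0.47 and 0.34 (log2, high and low side), SEMA6D lower with -0.60 and -0.49, SLIT2 with -0.33 and -0.36, and EPHA4 with -0.29 and -0.43. EPHB1 differed most among the genes called higher, 0.35 against 0.13 (adjusted p 0.935 for the difference in edgeR's quasi-likelihood test of the interaction). By that test, 0 of the 59 genes and 0 of the 24671 differed between the sides at an adjusted p under 0.05, with 6 and 1177 at an unadjusted p under 0.05.

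**Figure D5:**
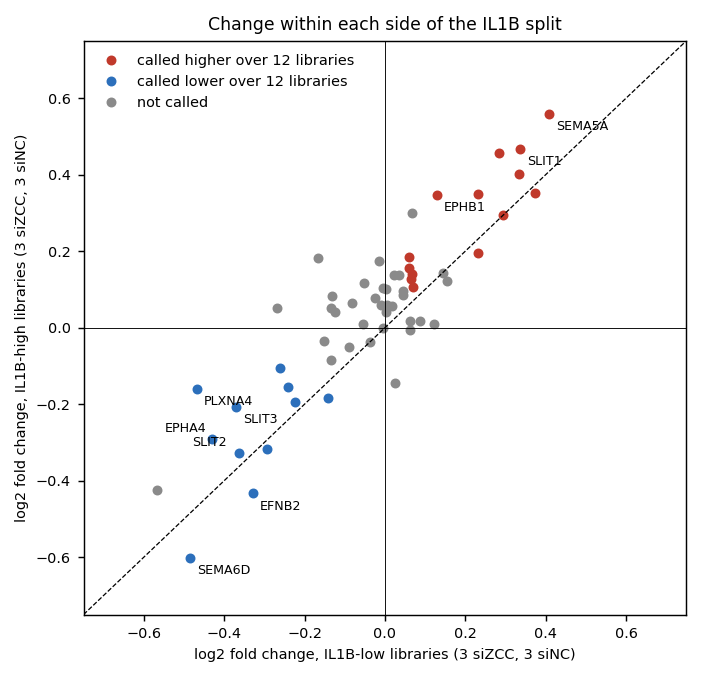
Log2 fold change of each of the 59 genes within the IL1B-low libraries (horizontal) and within the IL1B-high libraries (vertical), 3 siZCC against 3 siNC on each side; the dashed line marks equal change. The genes called over all 12 libraries, in red and blue, lie in the quadrants of equal sign, with SEMA6D at -0.49 and -0.60 and SLIT1 at 0.34 and 0.47.

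The machinery inside the cell that serves these receptors was compared through 61 further genes, among them collapsin response mediators and kinases. Of these, 6 were higher and 8 lower, with a median log2 fold change of -0.03. Their share of 23.0% is close to the 22.2% of all genes tested and below the 32% of those of at least 5 CPM. Most of the 61 were above that level. The smallest p-values among the falls were those of DPYSL3, a collapsin response mediator (1289 ± 23.0 to 1141 ± 40.8 CPM, SD, n = 6 each; -11.5%), RND3 (-14.7%), and CHN1, the Rac-inactivating chimaerin downstream of EPHA4 (68.4 ± 3.42 to 59.4 ± 2.503 CPM, SD, n = 6 each; -13.2%). Among the rises they were those of RGS3, which binds B-class ephrins (13.3%), PTK2, the focal adhesion kinase (6.84%), and RASA1, a Ras-inactivating protein (10.2%). In edgeR's quasi-likelihood test these 6 had adjusted p values between 2.31e-04 and 0.0124.

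Among 14 tested of 15 other cues and adhesion partners, 4 were higher and 0 lower, a share of 28.6% that is near the background of 22.2% of all genes and 32% of those of at least 5 CPM. RGMA, a repulsive ligand of NEO1, rose by 22.9%, from 791 ± 37.6 to 971 ± 62.8 CPM (SD, n = 6 each), NTNG2, a membrane-anchored netrin relative, by 37.9%, from 8.14 ± 0.533 to 11.2 ± 0.949 CPM (SD, n = 6 each), and FLRT1, of a family that binds UNC5 receptors, by 17.1%; their adjusted p ran from 4.73e-05 to 0.0115 in edgeR's quasi-likelihood test. Of 10 tested genes of the same 5 families outside the 59, 3 were called and 7 were not, and this share of 30% is likewise near the background. SEMA4F fell by 20.4% (45.9 ± 1.23 to 36.5 ± 0.820 CPM, SD, n = 6 each; adjusted p 8.66e-07), SEMA3B rose by 18.8% (adjusted p 8.41e-04) and NTN5 by 36.6%, at about 1 CPM (adjusted p 0.00808; all edgeR's quasi-likelihood test).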

How the data were processed

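Total RNA libraries (NEBNext Ultra II Directional kit, per the labels' protocols) were read into counts by the authors, who deposited 1 table with a row per gene symbol and a column per library. The submitters' processing notes name bcl2fastq 2.17, STAR 2.7.6a, featureCounts 2.0.1 and GRCh38; the annotation release and whether strand was used are not given in the sources used here. Groups and replicate numbers came from the sample titles.

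The deposited counts went unchanged into R 4.3.3. Genes were kept by filterByExpr (a minimum count of 10), which left 24671, scaled by TMM and compared over all 12 libraries with edgeR 4.0.16 (glmQLFit, glmQLFTest), with Benjamini-Hochberg adjustment over all genes kept. The SE is the log2 fold change divided by the square root of F, and 95% intervals are normal intervals from it. RPKM used the union of exons in GENCODE v29 (GRCh38), in which 92.2% of symbols and all 59 genes were found. The test was tested on simulated counts. Alternatives were DESeq2 1.42.0 (size factors, Wald test), upper quartile scaling, other filters, limma 3.58.1 voom, blocks, GC and length offsets, and leaving out each library. Named genes were those called, the leading ligand and receptor of each family, and the smallest p-values of each pathway list. The members and lists were chosen with earlier results of these data known; the interaction test was added after seeing the data. Figures used Python 3.11.15.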

Additional observations from a re-analysis of the deposited data

Results flagged for a closer look

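In each group of 6 libraries, the highest and the lowest library were compared with their neighbours for the 59 genes, ZCCHC17 and the library total, 122 groups in all. In 7 groups a library lay farther from its nearest neighbour than Dixon's 95% critical share of the range for 6 values, where chance gives about 6.1. The library siNC replicate 4 accounted for 4 of them: its total of 90755953 counts was below the 109973707 to 120023356 counts of the other controls, and it was highest for PLXNA3 (176.2 CPM, others 150.4 to 157.3 CPM), PLXNB1 (285.1 CPM, others 251 to 256.9 CPM) and PLXNB3 (57.76 CPM, others 46.88 to 50.46 CPM), none of which was called. SEMA3D was highest in siNC replicate 5 (4.423 CPM, others 2.364 to 3.007 CPM). NRP2 was lowest in siNC replicate 3 (82.12 CPM, others 91.7 to 96.84 CPM), and without that library its rise was still called. EPHA4 was lowest in siZCC replicate 6 (36.88 CPM, others 40.85 to 41.93 CPM), and its fall was likewise called without it.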

How the results depend on the processing

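Over 9 alternative fits to all 12 libraries, 21 to 27 of the 59 genes were called, against 25, and leaving out each library in turn gave 20 to 28; none of the 25 changed sign in any setting. The count over all genes ran from 4785 to 6328 in the 9 fits and from 4484 to 5626 without single libraries, and the 61 pathway genes gave 10 to 19 and 11 to 16. With 6 libraries only, the IL1B-high side gave 2043 genes, 16 of the 59 and 6 pathway genes, and the IL1B-low side 1602, 12 and 4, where fewer samples enter. ROBO1, near 0, turned to -0.0245 in the IL1B-low libraries and to -0.0082 without siNC replicate 3 (0.0477 at the other end). Replicate numbers are not said to pair the libraries. Same-numbered deviations correlated between -0.077 and 0.0179, which shows no shared effect of the number but cannot tell whether the design paired them. A fit with a replicate block called 4902 genes, 22 of the 59 (11 higher, 11 lower) and 13 pathway genes, and in it SEMA4C, SEMA6A and EFNB1 lost their call. Upper quartile scaling ended the calls of SEMA4C and EFNB3, no filter on low counts those of SEMA4C, SEMA6A, EFNB1 and EFNB3, limma voom that of EFNB3, and offsets for GC content and length that of NTN4, while adding PLXNA1, EPHB2 and EFNA2 as lower. A filter on a mean count of at least 50, the DESeq2 Wald test and the IL1B side as a block each added EFNA3 as higher. ZCCHC17 ranged from -2.53 to -2.49 without single libraries. Measured on the longest transcript, 28 genes in place of 25 reached 10 RPKM in siNC. Depth limits EPHB6, with as few as 9 counts in a library.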

Other observations

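Control libraries varied more than treated ones in 36 of the 59 genes, with a median coefficient of variation of 7.63% in siNC and 5.45% in siZCC. Among controls, siNC replicates 2 and 5 held the most SLIT1 (849 and 843 CPM, others 685 to 735 CPM), and the same pair held the most ROBO2 (173.5 and 192 CPM, others 144 to 163 CPM), SEMA5A (60.1 and 72.7 CPM, others 42.0 to 55.5 CPM) and SEMA6B (86.9 and 89.6 CPM, others 72.6 to 80.8 CPM). They were also lowest for EFNB2 (119 and 120 CPM, others 132 to 156 CPM). The smallest variation among controls was that of EPHB3, 1.29%, and the largest that of SEMA3D, 25.9%. These patterns were noticed after the values were seen and were not tested.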
